A study of Mus musculus with 4 samples.

Results

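Heat shock genes and immediate early genes are 2 groups of transcripts that single-cell studies of dissociated tissue commonly read as a trace of handling. A fixed list of 39 such genes, 13 heat shock and 26 immediate early, was followed here in lung immune cells. The genes were chosen by symbol among the 31053 genes of the count matrices, each symbol was found, and the rule itself uses no measured value. The cells were live (7-AAD-negative) CD45.2-positive cells sorted by flow cytometry from lungs of C57BL/6 mice. Every library held cells with floxed Ift20 alleles (Ift20 f/f), a gene that codes for a protein of intraflagellar transport. WT mice had no Cre and KO mice carried CD4 cre (Ift20 f/f CD4 cre), a driver active in developing T cells of both the CD4 and the CD8 lineage, which leaves the gene intact in B cells and myeloid cells. Papain, a plant protease that acts as an airway allergen, was given into the nose at 25 µg on 3 consecutive days and again on day 14, the lungs were taken on day 15, and the control was DPBS, a buffered saline. A single library was made per combination, and values below come in a fixed order unless stated otherwise: DPBS WT, DPBS KO, then Papain WT, Papain KO. How many mice went into a library is not stated. With 1 library per group, genotype or treatment cannot be told apart from the handling of that library, and no test between groups was run.

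The libraries held 8552, 5946, 8444 and 5863 cell barcodes, of which 7559, 5421, 7424 and 5427 were kept, with a median of 5827, 6537, 6195 and 6678 transcripts counted as unique molecular identifiers (UMIs) per cell. Cells were clustered with the 39 genes left out of the genes used for clustering, and clusters were named from fixed markers, with "-like" understood for each class name below. The 6 main classes were B, CD4 T, CD8 T, alveolar macrophage, monocyte and neutrophil; the smallest, neutrophils, had 119, 109, 356 and 231 cells. NK and ILC2 cells were scarcer, with 63 to 158 and 50 to 84 cells per library. As a check of the labels, Ift20 was at 53.8, 21.5, 52.8 and 17.5 CPM (its UMIs scaled by all UMIs of the class in that library) in CD4 T cells and at 52.5, 16.7, 51.8 and 17.6 CPM in CD8 T cells, while in alveolar macrophages it was at 56.2, 57.6, 64.8 and 58.2 CPM. Among all barcodes, 65 occurred in more than 1 library (0.455% of cells), and leaving such cells out reversed no value past the fold used below. The mitochondrial share of UMIs, another common sign of damaged cells, was at 6.23%, 6.60%, 6.13% and 6.23% in B cells, 5.31%, 5.43%, 5.27% and 5.24% in CD4 T cells and 4.37%, 4.34%, 4.69% and 4.39% in alveolar macrophages. In neutrophils it was lower and spread more, at 1.11%, 1.13%, 1.38% and 0.845%.

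Heat shock genes code for chaperones. When unfolded proteins accumulate, for instance in warmed or injured cells, heat shock factor 1 is released from its chaperone partners, forms trimers and binds heat shock elements, arrays of inverted nGAAn units in the promoters of these genes. Immediate early genes are transcribed within minutes of a signal, with no need for new protein synthesis, because their promoters are bound by factors such as SRF and CREB that are already present, and many code for transcription factors such as FOS and JUN or for inhibitors that end the signal. Enzymatic dissociation of tissue at warm temperature can switch on either group, and lymphocyte activation also switches on many immediate early genes.

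The upstream sequences of the genes differed in the heat shock element. The 250 bases before the annotated start were read from RefSeq (GRCm38.p6), where 10 of the 13 heat shock genes and 22 of the 26 immediate early genes had an entry. The letters GAANNTTC or TTCNNGAA, that is 2 facing units of the element searched on both strands, stood in 8 of the 10 heat shock windows, in 3 of the 22 immediate early windows (Jun, Fosl2 and Egr2) and in 14.5% of 27025 genes. The longer form with 3 units (TTCNNGAANNTTC or GAANNTTCNNGAA, which contains the shorter one) was in Hspd1 and Hspe1 and in 0.514% of all genes. The windows of Hspd1 and Hspe1 overlap on opposite strands, and their matches are the same bases. The 8 heat shock windows thus count that stretch in both genes. The CRE (TGACGTCA) was in Btg2 and Dusp1 against 1.77% of all genes, and the CArG box bound by SRF was in Egr2 and Zfp36 against 1.62%. The AP-1 letters TGANTCA were in Bag3 alone of the listed genes, against 7.82% of all genes, and TATAAA in Fos, Btg1 and Nr4a2 against 14.3%. A match of letters is not evidence of binding. The following windows are shown because the first 5 belong to the genes that set apart lymphocyte clusters described below, and the last, Fosl2, holds the same letters but was lower in those clusters. Capitals mark GAANNTTC or TTCNNGAA, the sequence is written 5′ to 3′ along the gene, and its last base is the one before the start.
Hspa1a: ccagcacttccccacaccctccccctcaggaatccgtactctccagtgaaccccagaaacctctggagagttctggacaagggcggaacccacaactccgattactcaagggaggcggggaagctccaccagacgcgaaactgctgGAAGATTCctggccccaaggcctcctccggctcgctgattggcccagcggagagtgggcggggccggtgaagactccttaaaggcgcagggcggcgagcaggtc
Hspa1b: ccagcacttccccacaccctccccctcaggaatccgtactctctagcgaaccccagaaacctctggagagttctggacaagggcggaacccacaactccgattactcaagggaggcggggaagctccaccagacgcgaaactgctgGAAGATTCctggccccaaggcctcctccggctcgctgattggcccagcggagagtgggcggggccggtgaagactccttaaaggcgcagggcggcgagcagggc
Hspb1: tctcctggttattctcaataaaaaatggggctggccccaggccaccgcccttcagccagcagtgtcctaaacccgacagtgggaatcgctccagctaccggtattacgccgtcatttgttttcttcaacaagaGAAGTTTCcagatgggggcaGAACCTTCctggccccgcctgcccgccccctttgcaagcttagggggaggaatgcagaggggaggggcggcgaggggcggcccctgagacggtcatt
Dnajb4: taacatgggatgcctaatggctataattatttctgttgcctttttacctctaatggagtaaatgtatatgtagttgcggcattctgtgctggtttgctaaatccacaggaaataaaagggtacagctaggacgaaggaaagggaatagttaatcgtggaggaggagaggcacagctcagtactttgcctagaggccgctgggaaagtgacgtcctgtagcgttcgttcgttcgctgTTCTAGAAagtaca
Jun: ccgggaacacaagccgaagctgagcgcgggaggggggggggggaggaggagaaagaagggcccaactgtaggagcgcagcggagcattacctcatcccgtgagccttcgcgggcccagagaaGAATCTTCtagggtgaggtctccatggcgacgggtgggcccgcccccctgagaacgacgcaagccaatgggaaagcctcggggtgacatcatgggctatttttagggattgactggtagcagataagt
Fosl2: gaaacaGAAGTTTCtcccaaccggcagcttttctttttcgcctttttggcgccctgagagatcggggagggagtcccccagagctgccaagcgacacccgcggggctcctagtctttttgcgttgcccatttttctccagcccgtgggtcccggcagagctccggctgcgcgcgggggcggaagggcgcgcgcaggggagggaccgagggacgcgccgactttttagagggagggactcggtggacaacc
Hspa1a and Hspa1b, neighbours 9.95 kb apart on the minus strand of chromosome 17 (chr17:34972157-34972406 and chr17:34959239-34959488), share 247 of these 250 bases (98.8%), with the marked letters from -104 to -97 in both. In Hspb1 (chr5:135887669-135887918, plus strand) they lie from -117 to -110 and from -97 to -90, in Dnajb4 (chr3:152193846-152194095, minus strand) from -14 to -7, and in Jun (chr4:95052223-95052472, minus strand) from -128 to -121. Fosl2 (chr5:32136222-32136471, plus strand) holds them near the far end, from -244 to -237. Dnajb4 has another annotated start, and that window lacks the letters.

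Neutrophils stood apart from the other classes, low in heat shock and high in immediate early transcripts. Summed over the 13 genes, heat shock transcripts were at 9880, 6837, 9668 and 8395 CPM in B cells, 8698, 8054, 10940 and 10860 CPM in CD4 T cells and 7955, 7578, 10270 and 9490 CPM in CD8 T cells. Alveolar macrophages had 10240, 7222, 7731 and 7263 CPM, monocytes 10770, 9324, 11600 and 11260 CPM, and neutrophils just 3299, 2376, 2949 and 2358 CPM. The 26 immediate early genes ran the other way in neutrophils, where they took 3.84%, 3.33%, 3.36% and 3.51% of all UMIs (38430, 33300, 33560 and 35140 CPM), against 0.671%, 0.868%, 0.847% and 0.945% in CD8 T cells, the lowest of the main classes in all 4 libraries. Next after neutrophils among the main classes came monocytes with 14610, 16400, 15000 and 17050 CPM. B cells (10610, 11420, 10650 and 11710 CPM), CD4 T cells (8277, 10900, 10520 and 11910 CPM) and alveolar macrophages (9291, 8797, 9499 and 9723 CPM) lay between. Of the scarcer cells, NK cells held 12120, 11540, 16320 and 10780 CPM of heat shock transcripts, and ILC2 16080, 18290, 12720 and 19140 CPM of immediate early transcripts.

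**Figure D1:**
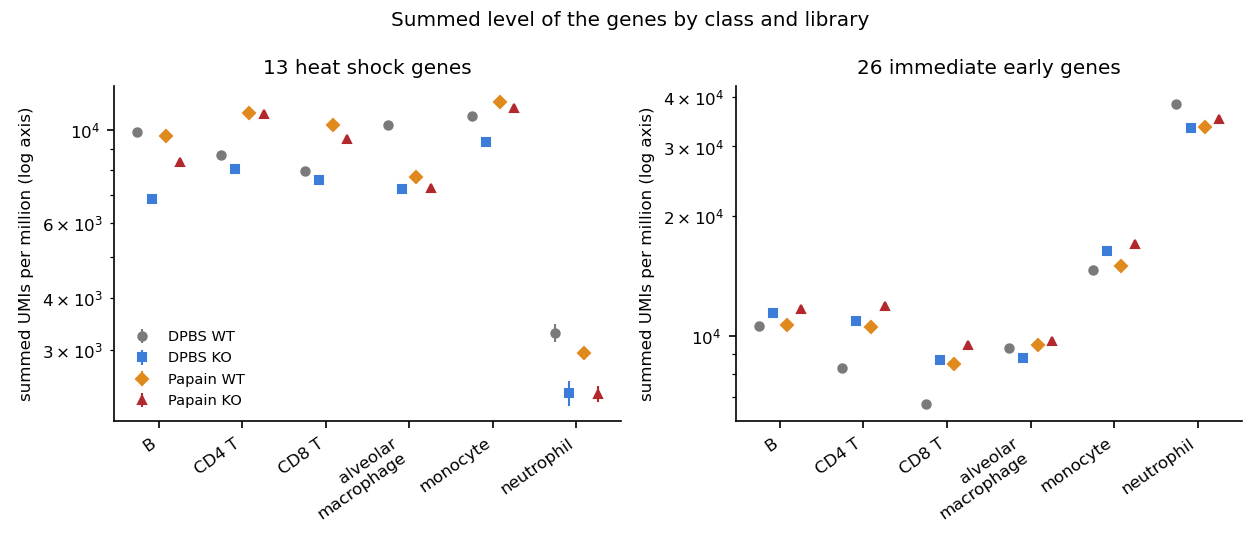
Summed CPM of the 13 heat shock genes and of the 26 immediate early genes in each cell class, 1 point per library, with exact Poisson 95% intervals that cover counting error only. Neutrophils have the lowest heat shock sums (2358 to 3299 CPM) and the highest immediate early sums (33300 to 38430 CPM) in every library.

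Among libraries the order differed between the groups. Over 78 gene and class pairs (13 heat shock genes in 6 main classes), DPBS KO was the lowest library in 56 and the highest in 1, and Papain WT was the highest in 42. Over the 156 pairs of the immediate early genes, DPBS WT was the lowest in 72 and Papain KO the highest in 58. The pairs share libraries and cells and are not independent. The same order over all other genes is not given here. These counts therefore describe the listed genes and do not show that the order is particular to them.

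The stress-inducible HSP70 genes Hspa1a and Hspa1b differed between libraries in every main class. In alveolar macrophages Hspa1a stood at 1480, 587, 748 and 677 CPM, so that DPBS WT was above the other 3 libraries. In CD4 T cells it was at 1457, 1310, 2117 and 2304 CPM and in CD8 T cells at 892, 814, 1526 and 1480 CPM. In T cells both papain libraries were above both DPBS libraries, an order not seen in the macrophages. In B cells Hspa1a was at 2298, 1649, 2000 and 1933 CPM and in monocytes at 2696, 1871, 2629 and 2966 CPM. In both classes DPBS KO was the low library. Neutrophils had 221, 131, 199 and 178 CPM, and there the DPBS pair was the only one of the 4 contrasts whose ratio differed from 0 beyond counting error.

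Hspa1b, which codes for a nearly identical protein, shared its lowest library with Hspa1a, DPBS KO, in all 6 main classes, while the order of the others differed. Papain against DPBS in WT was below 0 for Hspa1a and above 0 for Hspa1b in B cells (-0.20 and 0.35), monocytes (-0.04 and 0.27) and neutrophils (-0.15 and 0.30). Hspa1b was at 401, 346, 806 and 963 CPM in CD4 T cells and at 310, 226, 645 and 687 CPM in CD8 T cells. Papain against DPBS gave log2 ratios in CD4 T cells of 1.01 (95% counting interval 0.94 to 1.08) in WT and 1.48 (1.40 to 1.56) in KO, and in CD8 T cells of 1.06 (0.98 to 1.13) and 1.60 (1.51 to 1.70). In alveolar macrophages Hspa1b was at 727, 296, 484 and 397 CPM, and its ratio of papain to DPBS was below 0 in WT, at -0.59 (-0.62 to -0.55), and above 0 in KO, at 0.42 (0.36 to 0.47). B cells had 573, 404, 728 and 802 CPM and monocytes 947, 671, 1141 and 1335 CPM. In neutrophils the level was 26.1 CPM in DPBS KO against 119, 147 and 99.6 CPM in the other libraries.

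Constitutive chaperones differed between libraries as well. Hspa8, the housekeeping member of the HSP70 family, was at 3280, 2789, 2704 and 2798 CPM in alveolar macrophages, 1607, 1146, 1682 and 1347 CPM in B cells and 1892, 1961, 2283 and 2179 CPM in CD4 T cells. Hsp90aa1, the inducible cytosolic HSP90, was at 1253, 854, 1152 and 958 CPM in B cells and at 1146, 698, 712 and 630 CPM in alveolar macrophages. Like Hspa1a it singled out DPBS WT in the macrophages. The constitutive Hsp90ab1 ranged from 1465 CPM in DPBS KO B cells to 2483 CPM in Papain WT CD4 T cells, neutrophils apart. The mitochondrial chaperonin pair Hspd1 and Hspe1, divergent neighbours on chromosome 1, peaked in Papain WT in CD4 T cells, at 151, 129, 198 and 166 CPM for Hspd1 and at 408, 394, 476 and 425 CPM for Hspe1. Of the 50-base windows at the 3′ end of the transcript, 60.6% in Hspa8, 40.9% in Hsp90aa1, 39.2% in Hspb1, 29.8% in Hspd1 and 26.6% in Hspe1 also occur in other genes, chiefly pseudogenes and predicted genes, so counts of these may have been split in counting. Hspa1a, Hspa1b and Hsph1 had no such window.

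Hsph1, an HSP110 nucleotide exchange factor for HSP70, was lower in KO than in WT under papain, and also under DPBS in the classes with levels given here. It was at 163, 84.0, 213 and 106 CPM in B cells, 114, 99.8, 199 and 128 CPM in CD4 T cells and 110, 90.4, 195 and 113 CPM in CD8 T cells. Papain WT was the highest library in each of these classes. KO against WT under papain gave log2 ratios of -1.02 (-1.12 to -0.91) in B cells, -0.64 (-0.77 to -0.51) in CD4 T cells, -0.79 (-0.93 to -0.65) in CD8 T cells and -0.61 (-0.77 to -0.45) in monocytes. In alveolar macrophages, at 122, 63.0, 85.9 and 71.0 CPM, the ratio was smaller at -0.28 (-0.40 to -0.15), and the gap between genotypes was wider under DPBS.

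The remaining heat shock genes were the J-domain co-chaperones, the small heat shock protein and the HSP70 co-chaperone BAG3. Dnajb1, the main HSP40 partner of inducible HSP70, was higher with papain in CD4 T cells (315, 372, 457 and 545 CPM) and had its maximum in DPBS WT in alveolar macrophages (130, 76.6, 89.5 and 83.1 CPM). Dnaja1 in B cells was at 467, 278, 506 and 382 CPM, and Dnajb4 at 75.1, 46.1, 59.4 and 64.7 CPM. Both were lowest in DPBS KO. Hspb1, the small heat shock protein HSP27, was chiefly a B cell transcript here (133, 84.5, 111 and 116 CPM), while CD4 T cells had 22.0, 8.60, 37.8 and 47.1 CPM. It was not seen in the neutrophils of either DPBS library, where 0 UMIs allow up to 6.62 and 8.70 CPM. Bag3 was a transcript of alveolar macrophages (80.9, 63.1, 66.9 and 60.1 CPM) and monocytes (53.3, 45.7, 73.4 and 60.2 CPM), and was at 3.93 to 6.62 CPM in B cells.

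**Figure D2:**
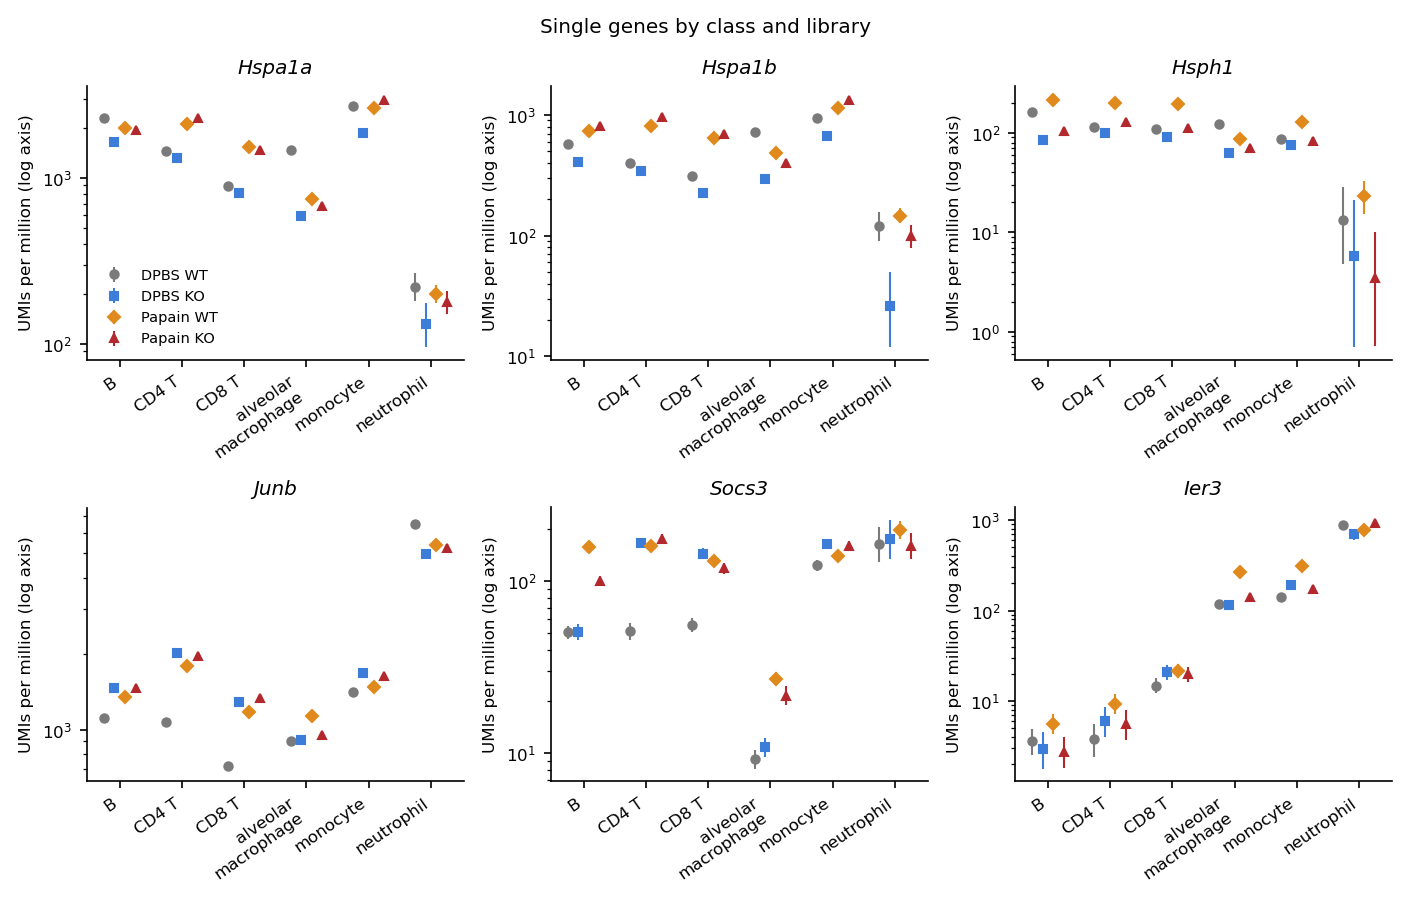
CPM of 6 of the genes (Hspa1a, Hspa1b, Hsph1, Junb, Socs3 and Ier3) in the 6 main classes, 1 point per library with exact Poisson 95% intervals. Hspa1b is higher with papain in the T cell classes (401 CPM in DPBS WT and 806 CPM in Papain WT CD4 T cells), and Socs3 in CD4 T cells is low in DPBS WT alone (51.1 CPM against 161 to 177 CPM).

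To set the libraries side by side without the mix of cell types, the CPM was averaged over the 6 main classes with equal weight. Hspa1a was then at 1507, 1060, 1536 and 1590 CPM, Hspa1b at 513, 328, 659 and 714 CPM, and Hspb1 at 41.3, 26.1, 49.1 and 47.8 CPM. Under DPBS, KO was below WT for all 13 heat shock genes, with a median log2 ratio of -0.26 against -0.015 over all genes. Hspa1b (-0.65, interval -0.68 to -0.61) and Hspb1 (-0.66, -0.77 to -0.55) were at least 1.5-fold lower, a bound that 5.47% of 13428 genes with at least 50 UMIs passed. Gating single cells on marker transcripts in place of clusters turned the Hspb1 ratio to 0.19. By class, the median of the heat shock genes in that contrast was -0.55 in B cells and -0.54 in alveolar macrophages, against -0.15 in CD4 T cells, -0.10 in CD8 T cells and -0.20 in monocytes. In B cells 5 of 13 were at least 1.5-fold lower (Hsph1, Hspd1, Hspb1, Dnaja1 and Dnajb4; 5% of all genes), in alveolar macrophages 6 of 13 (Hspa1a, Hspa1b, Hsp90aa1, Hsph1, Dnajb1 and Dnajb4; 2.73% of all genes), and in neutrophils 4 of the 10 measured with 50 UMIs (Hspa1a, Hspa1b, Hspa8 and Dnajb4; 14.6% of all genes). The neutrophil values rest on few cells. Averaging over cells turned the Hspa1a ratio to 0.10, and with cells thinned to 1000 UMIs a Hspa1b UMI was found in 4.24% of WT and 4.85% of KO neutrophils under DPBS.

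Under papain the genotypes lay closer. The class-balanced median of KO against WT was -0.13 for heat shock genes (all genes -0.02), with 4 of 13 above 0. Hsph1 alone passed the fold, at 102, 69.8, 141 and 84.0 CPM and a log2 ratio of -0.74 (-0.80 to -0.68), where 4.74% of all genes did. Bag3 (27.3, 23.4, 31.0 and 25.7 CPM; -0.27) and Hspe1 (375, 337, 405 and 344 CPM; -0.24) came next. Hspa8 was at 2166, 1923, 2159 and 1991 CPM and Hsp90aa1 at 956, 760, 925 and 845 CPM, with ratios of -0.12 and -0.13. Hsph1 was also lower in KO than in WT under DPBS, at -0.54, so the 2 class-balanced genotype contrasts point the same way for it. Within single clusters, described below, this did not always hold under DPBS. From WT to KO, Hsph1 went from 130.3 to 162.5 CPM in B cluster C1 and from 92.9 to 152.1 CPM in CD4 T cluster T0. It went from 199.6 to 43.3 CPM in B cluster C0 and from 133.1 to 53.1 CPM in CD4 T cluster T2.

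The ratios of papain to DPBS differed between genotypes and classes. In KO all 13 heat shock genes had class-balanced ratios above 0, with a median of 0.17, and Hspa1b at 1.12 (1.09 to 1.16) and Hspb1 at 0.87 (0.76 to 0.99) passed the fold, as 5.24% of all genes did. Hspa1a lay just under it, at 0.58 (0.56 to 0.60). In WT 10 of 13 were above 0 with a median of 0.16 and none passed the bound (5.99% of all genes did), the furthest being Hsph1 at 0.47, Hspa1b at 0.36 and Dnajb1 at 0.29 (227, 207, 278 and 279 CPM). The WT value mixed classes of opposite sign. In CD4 T cells the median was 0.40 and 4 of 13 were at least 1.5-fold higher (Hspa1b, Hsph1, Hspb1 and Bag3; 9.91% of all genes), and in CD8 T cells it was 0.37 with 6 of 13 (those 4, Hspa1a and Dnajb1; 6.97% of all genes). In alveolar macrophages it was -0.28, with Hspa1a, Hspa1b and Hsp90aa1 at least 1.5-fold lower (5.06% of all genes) and Hspb1 higher (5.5% of all genes). Within 1 cluster per class (T2 and C2), Hsph1 and Hspb1 in CD4 T cells (-0.27 and -0.42) and Hspb1 in alveolar macrophages (-1.29) were lower with papain in WT. In another large cluster of each class, T0 and C7, Hsph1 and Hspb1 were at least 1.5-fold higher (6.11% and 4.61% of all genes). Within KO, 4 of 13 were past the fold with papain in CD4 T cells (Hspa1a, Hspa1b, Hspb1 and Bag3; 5.55% of all genes; Bag3 at -0.40 after thinning), 3 in CD8 T cells (4.47%) and 3 in monocytes (5.41%), Hspa1a, Hspa1b and Hspb1 in the last 2 classes.

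**Figure D3:**
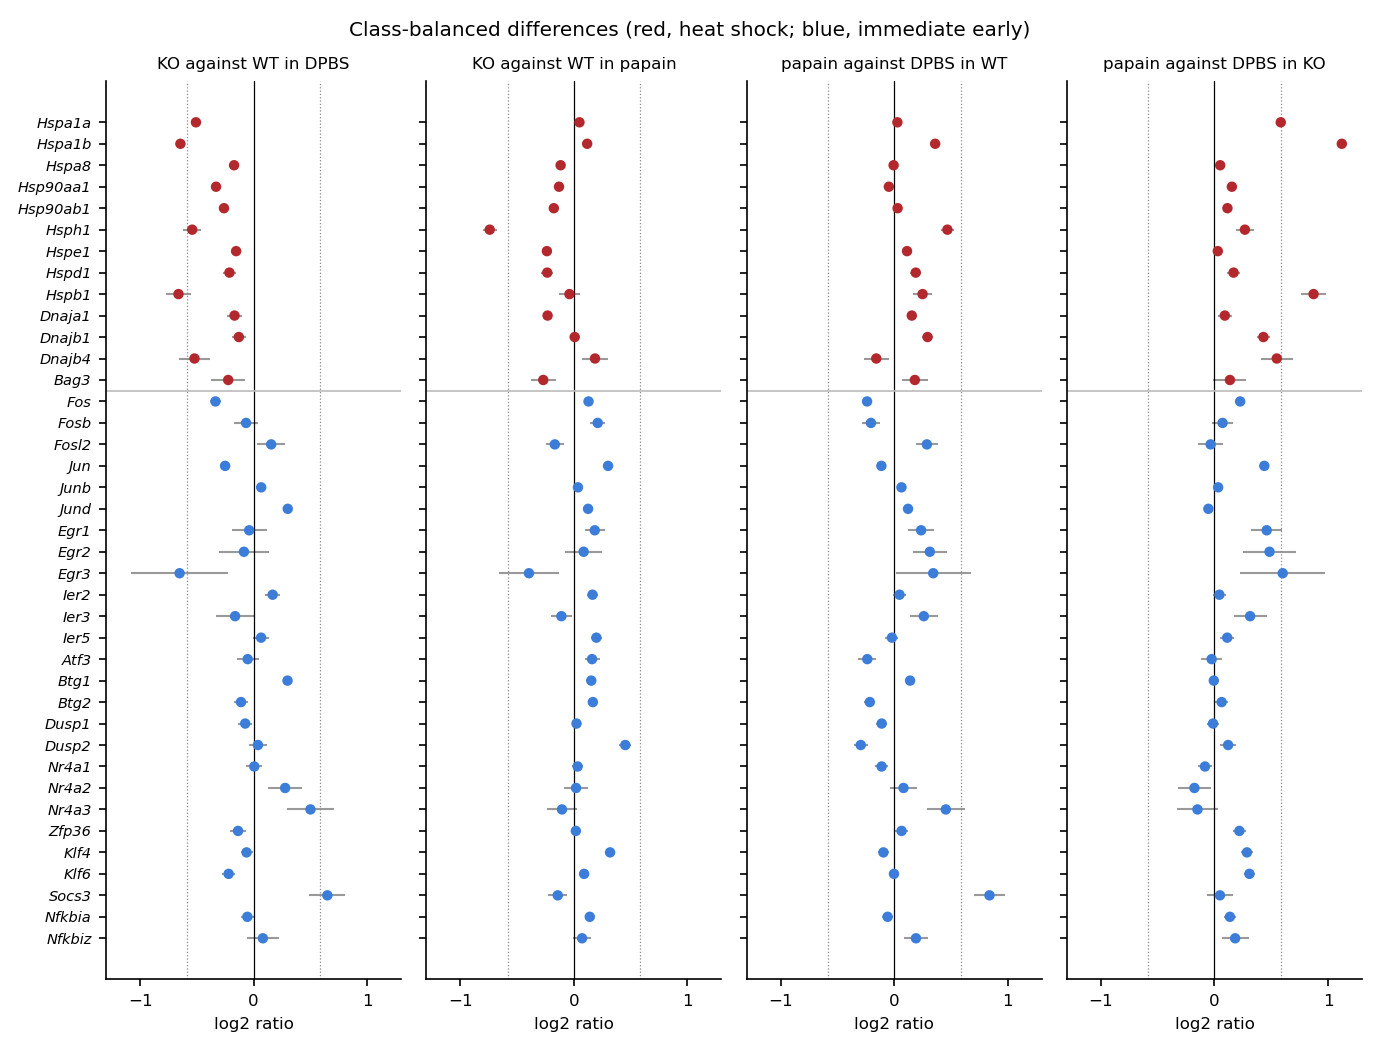
Class-balanced log2 ratios of the 39 genes for the 4 contrasts, heat shock and immediate early genes apart, with 95% intervals from counting error. Heat shock genes lie below 0 for KO against WT under DPBS (13 of 13) and above 0 for papain against DPBS in KO (13 of 13), while the immediate early genes scatter around 0 in each contrast.

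Immediate early genes of the AP-1 family showed cell class first. Fos was at 3193, 2083, 2231 and 2187 CPM in neutrophils and at 390, 428, 451 and 605 CPM in CD4 T cells, and Junb at 6519, 4957, 5367 and 5258 CPM in neutrophils. In each, DPBS WT was the highest library for neutrophils and the lowest for CD4 T cells. Junb in CD4 T cells stood at 1078, 2010, 1780 and 1963 CPM and in CD8 T cells at 721, 1286, 1171 and 1330 CPM. DPBS WT was the single low library. KO against WT under DPBS gave 0.90 (0.85 to 0.94) in CD4 T cells and 0.83 (0.78 to 0.89) in CD8 T cells, and 0.14 and 0.18 under papain. In B cells Junb followed the same order with a smaller range, at 1116, 1465, 1350 and 1459 CPM. Jund, a family member with steadier expression, was at 996, 1424, 1206 and 1464 CPM in CD4 T cells. Jun itself did not follow Junb. It was at 724, 729, 755 and 1050 CPM in CD4 T cells, with Papain KO as the high library. Fosl2 was at 74.5, 126, 141 and 94.9 CPM in CD4 T cells, lowest in DPBS WT, and Fosb ranged from 43.7 CPM in DPBS KO CD4 T cells to 1067 CPM in DPBS KO neutrophils.

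The zinc finger factors of the EGR family and the KLF family differed in where they were expressed. Egr1 was at 583, 635, 817 and 851 CPM in neutrophils and at 242, 185, 166 and 268 CPM in alveolar macrophages. It was higher with papain in neutrophils of both genotypes, whereas in macrophages the ratio was -0.55 (-0.61 to -0.49) in WT and 0.53 (0.47 to 0.60) in KO. Egr2 was highest in alveolar macrophages (81.8, 66.3, 102 and 80.5 CPM). Egr3 was scarce, at 16.8, 10.7, 21.4 and 16.2 CPM class-balanced, and its ratios carry wide intervals. Klf4, a macrophage and monocyte factor, was at 624, 609, 527 and 731 CPM in monocytes and 342, 337, 353 and 409 CPM in alveolar macrophages. Klf6 varied least between classes, by 1.65-fold between the means of CD4 T cells and ILC2, and was lowest in DPBS KO in all 6 main classes. Class-balanced it was at 488, 419, 487 and 518 CPM.

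Orphan nuclear receptors of the NR4A family, which respond to antigen receptor signalling, differed in T cells. Nr4a3 was at 37.2, 66.2, 80.2 and 52.7 CPM in CD4 T cells and 28.5, 63.3, 59.4 and 56.1 CPM in CD8 T cells. DPBS WT was the low library in both. Nr4a1 was at 94.4, 100, 133 and 125 CPM in CD4 T cells, with both papain libraries above both DPBS libraries, and at 511, 513, 473 and 484 CPM class-balanced. Nr4a2 ranged between 30.4 and 117 CPM in the main classes.

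Among the feedback inhibitors, Socs3 had the largest class-balanced ratio of any immediate early gene (a log2 size of 0.84), while Nfkbia (0.14) and Dusp1 (0.11) were among the steadiest. Socs3, which restrains cytokine receptor signalling through STAT3, was at 51.1, 167, 161 and 177 CPM in CD4 T cells and at 55.7, 145, 130 and 119 CPM in CD8 T cells. DPBS WT was the single low library in both. KO against WT under DPBS was 1.71 (1.52 to 1.90) in CD4 T cells and 1.38 (1.2 to 1.55) in CD8 T cells. In B cells the order was by treatment, at 50.5, 50.6, 158 and 101 CPM, and likewise in alveolar macrophages at 9.24, 10.8, 26.9 and 21.7 CPM. Nfkbia, which codes for the inhibitor of NF-κB, was at 565, 821, 874 and 874 CPM in CD4 T cells and at 602, 1072, 878 and 941 CPM in monocytes. DPBS WT was lowest in these, but in neutrophils (3941, 2750, 2714 and 3272 CPM) it was highest. Its relative Nfkbiz was at 61.7, 86.9, 124 and 77.7 CPM in CD4 T cells. Ier3, another NF-κB target, was highest in Papain WT in 5 of the 6 main classes, though scarce in lymphocytes (class means of 3.73 to 19.3 CPM). It was at 118, 114, 267 and 142 CPM in alveolar macrophages and 142, 192, 306 and 173 CPM in monocytes. The ratio of papain to DPBS in WT was 1.18 (1.11 to 1.24) in alveolar macrophages and 1.11 (1.00 to 1.23) in monocytes, and 0.32 and -0.15 in KO. In neutrophils, at 867, 690, 767 and 932 CPM, Ier3 did not follow that order.

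The mRNA decay factor Zfp36 was at 131, 216, 229 and 213 CPM in CD4 T cells, lowest in DPBS WT. The MAP kinase phosphatase Dusp1 was highest in neutrophils at 4391, 3817, 3809 and 3618 CPM, with CD4 T cells at 314, 363, 370 and 409 CPM. Dusp2, a phosphatase found here in lymphoid and myeloid classes (mean of 511 CPM in neutrophils), was at 615, 647, 476 and 580 CPM in B cells. In B cells both papain libraries were lower than both DPBS libraries. The antiproliferative Btg1 was lowest in DPBS WT in all 6 main classes, for example at 1648, 2090, 1698 and 2015 CPM in B cells. Btg2 gave 3409, 3118, 2897 and 3170 CPM in neutrophils. Ier2 was at 329, 467, 401 and 461 CPM in CD4 T cells and Ier5 at 204, 276, 261 and 312 CPM, each lowest in DPBS WT. Atf3, a stress-induced factor, was at 382, 376, 243 and 252 CPM in alveolar macrophages, lower in both papain libraries, and at 83.5, 63.1, 143 and 118 CPM in B cells, higher in both.

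In the class-balanced values these differences were largely not visible. Those values rest on mean CPM, so the class with the highest level weighs most, which for many immediate early genes was the neutrophils. Ier3 for papain in WT was at 0.65 in B, 1.31 in CD4 T and 0.54 in CD8 T cells. It was at 1.18 in alveolar macrophages, 1.11 in monocytes and -0.18 in neutrophils, and class-balanced at 0.26. The class-balanced medians of the 26 genes were -0.05 and 0.11 for KO against WT under DPBS and papain, and 0.06 and 0.09 for papain against DPBS in WT and KO. For KO against WT under DPBS, Socs3 (76.1, 119, 136 and 123 CPM; 0.65, 0.49 to 0.81) passed the fold upward, as 4.86% of all genes did, and Egr3 (-0.65, -1.08 to -0.23) downward. Nr4a3 (61.6, 87.2, 84.5 and 78.6 CPM) reached 0.50, Fos (1197, 949, 1015 and 1110 CPM) -0.34 and Jund (1101, 1356, 1198 and 1307 CPM) 0.30. Under papain no immediate early gene passed 1.5-fold between genotypes (4.03% of all genes were higher), and those furthest from 0 were Dusp2 (341, 351, 278 and 381 CPM; 0.45), Egr3 (-0.40), Klf4 (197, 189, 185 and 230 CPM; 0.32), Jun (667, 561, 617 and 760 CPM; 0.30) and Fosb (347, 332, 301 and 348 CPM; 0.21). Socs3 was the 1 immediate early gene past the fold for papain in WT, at 0.84 (0.70 to 0.98), with none lower where 4.11% of all genes were. In KO it was Egr3, at 0.60 (0.23 to 0.98), again with none lower (3.22% of all genes); Egr2 (18.9, 17.8, 23.5 and 24.9 CPM), Egr1 (176, 171, 207 and 235 CPM), Jun and Ier3 (192, 171, 230 and 213 CPM) followed at 0.48, 0.46, 0.44 and 0.31. Genes near 0 in all 4 contrasts were Junb (1958, 2052, 2047 and 2098 CPM), Dusp1 (1124, 1068, 1042 and 1058 CPM) and Nr4a1. The other genes given by rule lay between, Ier2 at 431, 484, 445 and 499 CPM, Atf3 at 277, 268, 235 and 263 CPM, Nfkbia at 1069, 1029, 1026 and 1131 CPM and Btg2 at 1015, 940, 874 and 982 CPM.

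Within the T cells the immediate early medians lay further from 0 in the contrasts that use DPBS WT. For KO against WT under DPBS the median was 0.28 in CD4 T cells with 6 of 26 at least 1.5-fold higher (Fosl2, Junb, Ier3, Nr4a3, Zfp36 and Socs3; 5.06% of all genes), and 0.36 in CD8 T cells with 7 of 26 (Fosl2, Junb, Jund, Egr2, Nr4a3, Socs3 and Nfkbiz; 4.33%). Papain against DPBS in WT gave 0.41 in CD4 T cells with 9 of 26 higher (Fosl2, Junb, Egr3, Ier3, Nr4a3, Zfp36, Socs3, Nfkbia and Nfkbiz, with 9.91% of all genes) and 0.42 in CD8 T cells with 8 of 26 (Fosl2, Junb, Egr3, Atf3, Nr4a3, Zfp36, Socs3 and Nfkbiz, with 6.97%). Atf3 was at -0.00 there with called doublets kept. Both contrasts share the DPBS WT library. The medians were 0.11 in CD4 T and 0.08 in CD8 T cells for KO against WT under papain, with 4 of 26 lower in CD4 T cells (Egr3, Ier3, Nr4a3 and Nfkbiz) where 10.1% of all genes were. In neutrophils 4 of 26 were higher in that contrast (Egr2, Dusp2, Nr4a2 and Klf4; 6.48% of all genes), of which Klf4 turned to -0.16 with called doublets kept and to -0.86 after thinning. B cells had 5 of 26 higher with papain in WT (Fosl2, Ier3, Atf3, Nr4a3 and Socs3; 7.34%) and alveolar macrophages 4 of 26 (Egr3, Ier3, Socs3 and Nfkbiz; 5.5%). In B cells Ier3 was at -0.01 with called doublets kept, and Atf3 at -0.15 within 1 cluster per class.

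The transcripts were not spread evenly over cells. After each cell was thinned to 1000 UMIs, the median B cell held 8, 4, 7 and 4 heat shock UMIs, while the cell at the 90th percentile held 19, 19, 24 and 23. In DPBS KO the typical B cell was thus low while its top cells equalled those of DPBS WT. The top 10% of B cells held 26.3%, 44.2%, 33.4% and 38.2% of all heat shock UMIs, and the share of B cells with none was 1.21%, 5.40%, 1.34% and 4.70%. Of B cells, 29.5% had 1 to 2 such UMIs in DPBS KO against 9.23% in DPBS WT, while 33% had 9 to 16 in DPBS WT against 10.7%. In CD4 T cells the share with 17 to 32 was 6.64%, 11.5%, 16.7% and 19.7%, and in CD8 T cells 3.64%, 8.13%, 16.4% and 12.1%, so DPBS WT had the fewest such cells. Alveolar macrophages had the reverse, 10.8%, 4.11%, 4.92% and 2.60%. Immediate early UMIs were more even in B cells, where the top 10% of cells held 19.7%, 21.5%, 21.1% and 21.6% of them, but not in alveolar macrophages under papain, where the top 10% held 25.2% in WT and 22.2% in KO against 23.8% and 21.2% of heat shock UMIs. Their medians were 10, 10, 10 and 11 in B cells, 8, 11, 10 and 11 in CD4 T cells and 38.5, 32, 35 and 33 in neutrophils.

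The share of cells with a Hspa1a UMI at that depth was 54.9%, 23.7%, 39.3% and 34.5% in B cells (72.2%, 36.1%, 57.6% and 53.6% before thinning). No lung immune cell is known to lack these transcripts, so free RNA had no clean reference class. Of the main classes neutrophils gave the lowest share, 16.1%, 10.7%, 14.0% and 10.1% (36.1%, 25.7%, 31.7% and 33.3% before thinning), at median depths of 3262, 2962, 3147 and 3326 UMIs against 3882, 4229, 4385 and 4786 in B cells. The exact binomial intervals of neutrophils and B cells did not overlap in any library. ILC2, at 17.6%, 10%, 19% and 12.7%, overlapped with neutrophils in every library.

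**Figure D4:**
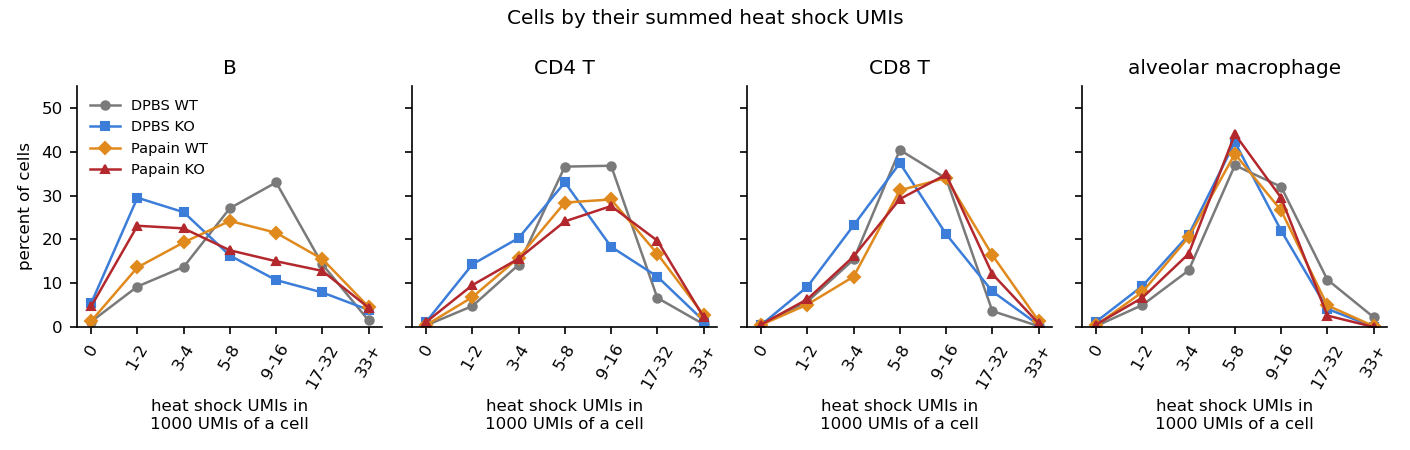
Share of cells (%) by number of heat shock UMIs per cell after thinning to 1000 UMIs, by class and library. DPBS WT B cells peak at 9 to 16 UMIs (33%), whereas DPBS KO B cells peak at 1 to 2 (29.5%) with a tail that reaches 33 or more (3.90%).

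This uneven spread followed the clusters. For each class the clusters with the most cells were compared within each library (a pair chosen after the clusters were seen, and a description, since genes that vary with the 39 were used to form clusters). Each pair was ordered by its Hspa1a level, so the direction of the Hspa1a ratio was set by Hspa1a itself. Over 10144 genes in B cells, Hspa1b, Hspa1a and Hspb1 took ranks 1, 2 and 3 by the smallest of the 4 libraries' log2 ratios between cluster C1 and cluster C0, computed on CPM + 10. These genes took ranks 1, 2 and 3 of 8952 genes between the CD4 T clusters T0 and T2, and ranks 1, 2 and 4 of 8913 between the CD8 T clusters T1 and T3. Hspa1a stood at 3377 against 1025 CPM in DPBS WT B cells, 4620 against 175 in DPBS KO, 5444 against 546 in Papain WT and 5106 against 534 in Papain KO. In CD4 T cells the pairs were 2137 against 340, 2630 against 63.4, 3266 against 286 and 3594 against 269 CPM. In CD8 T cells they were 1237 against 219, 1662 against 44.7, 2444 against 247 and 2743 against 146 CPM. The gap was narrowest in DPBS WT in each class, 3.30-fold, 6.29-fold and 5.65-fold, and widest in DPBS KO, 26.4-fold, 41.5-fold and 37.2-fold. In every library of the 3 lymphocyte classes the Hspa1a-high cluster had the lower median depth, for example 3746 against 3972 UMIs in DPBS WT B cells and 6840 against 7676 UMIs in Papain WT CD8 T cells. In B cells it also had the lower median mitochondrial share, from 6.01% against 6.19% in DPBS WT to 5.72% against 6.42% in Papain KO. The monocyte clusters C9 and C6 were further apart in depth, at 6123.5 and 12911 UMIs in Papain WT. The part of depth in these differences was not tested.

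A small set of the listed genes separated these clusters in every library. At least 1.5-fold higher in all 4 libraries were 4 of 13 heat shock genes in B cells (Hspa1a, Hspa1b, Hspb1 and Dnajb4; 0.532% of all genes), 5 in CD4 T cells (these and Dnajb1; 1.25%) and the first 4 again in CD8 T cells (0.595%). Jun was the immediate early gene that joined them in each lymphocyte class, at 1087 against 640, 1290 against 305, 1415 against 456 and 1739 against 455 CPM in B cells. Hspa1a, Hspa1b, Hspb1, Dnajb4 and Jun carry the marked letters in the windows printed above, and Dnajb1 does not. Hsph1, Hspe1, Hspd1, Dnaja1 and Egr2 also hold these letters, Hspe1 and Hspd1 in the longer form, and none of them was 1.5-fold higher in all 4 libraries in any of the lymphocyte classes on the CPM + 10 scale. In B cells Hsph1, Hspe1, Hspd1 and Dnaja1 were higher in every library but DPBS WT. Hspa8 in B cells was at 1475 against 1627, 1717 against 773, 2126 against 1280 and 1904 against 919 CPM, and the lowest log2 ratio over the libraries was -0.58 for Hsph1 and -0.12 for Hsp90aa1. Other immediate early genes were lower in the same clusters, Nr4a1 and Nr4a2 in B cells (0.808% of all genes), Fosl2, Nr4a3 and Socs3 in CD4 T cells (1.32%) and Fosl2 and Nr4a3 in CD8 T cells (1.04%). Nr4a3 in CD4 T cells was at 13.9 against 61.1, 26.1 against 82.0, 17.7 against 109 and 21.4 against 87.4 CPM. Fosl2 was at 22.6 against 157, 84.7 against 155, 49.0 against 203 and 36.5 against 157 CPM. In alveolar macrophages no heat shock gene was 1.5-fold higher in all 4 libraries between clusters C7 and C2. Nr4a2, Nr4a3, Nfkbia and Nfkbiz were lower in C7 (1.09% of all genes), with Nr4a3 at 12.3 against 141 CPM in DPBS WT, and Jun was higher. Crem and Vps37b, genes outside the list, were also among the 10 furthest lower in B, CD4 T and CD8 T cells.

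**Figure D5:**
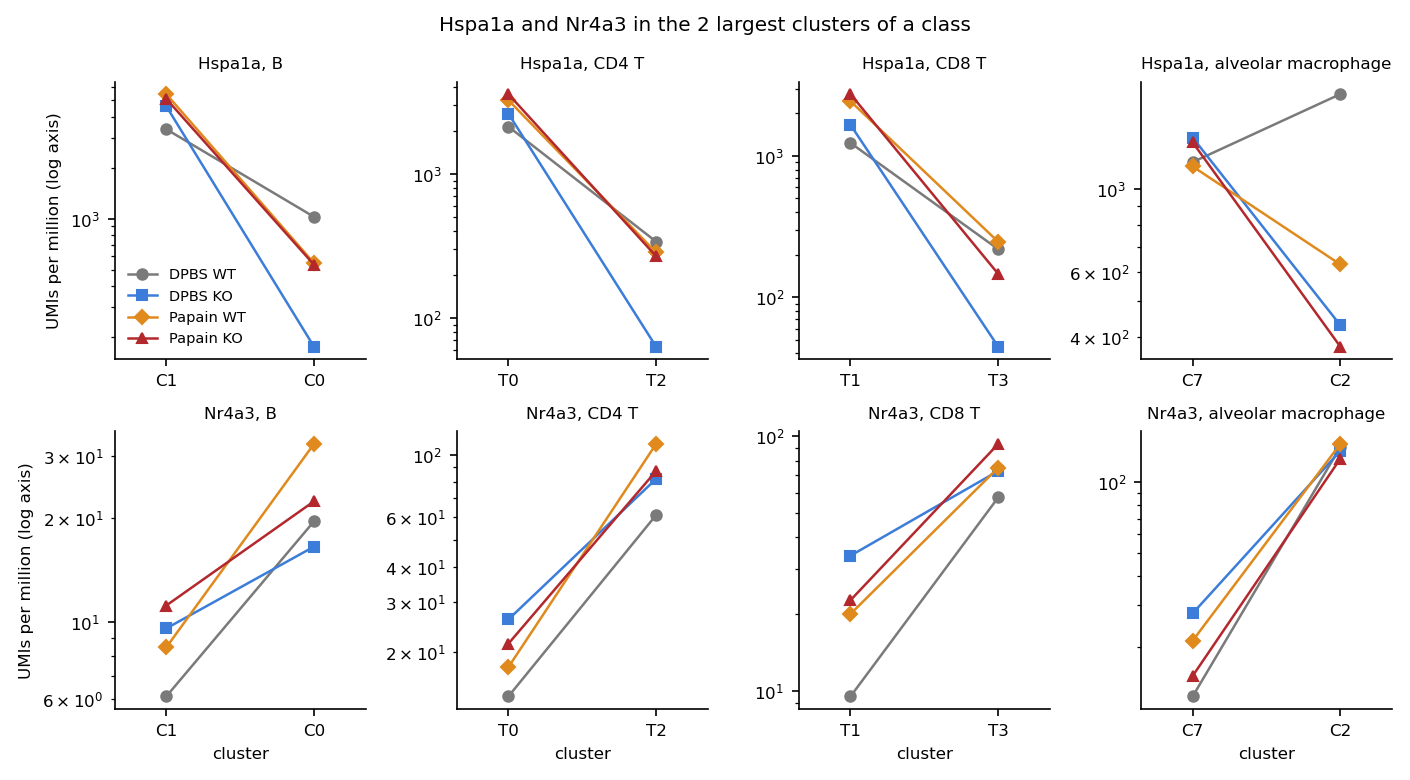
CPM of Hspa1a and Nr4a3 in the paired clusters of each class, 1 point per library, log axis. Hspa1a is higher and Nr4a3 lower in the same lymphocyte cluster in each library, by 3.30 to 41.5-fold for Hspa1a, the gene by which the pairs were ordered.

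Split by cluster, KO against WT under DPBS took opposite signs in lymphocytes and alveolar macrophages, though not in monocytes. For KO against WT under DPBS the heat shock median was 0.27 in B cluster C1 and -1.33 in C0, where 11 of the 12 measured genes were at least 1.5-fold lower (2.46% of all genes). In CD4 T cells it was 0.25 in T0 and -0.61 in T2 (6 of 11 lower; 4.23% of all genes), in CD8 T cells 0.20 in T1 and -0.57 in T3 (5 of 11; 4.89%), and in alveolar macrophages 0.21 in C7 and -0.76 in C2 (8 of 13; 1.55%). In monocytes both clusters were below 0, with medians of -0.25 in C9 (the Hspa1a-high cluster) and -0.07 in C6 and sums of 11550 and 9336 CPM in C9 against 10350 and 9317 CPM in C6 for DPBS WT and DPBS KO. The lower level of DPBS KO was in the Hspa1a-low clusters of the lymphocytes and in C2 of the alveolar macrophages. C2 had less Hspa1a than C7 in every library but DPBS WT. In DPBS WT it had more, at 1800 against 1182 CPM, with heat shock sums of 11700 against 7970 CPM. The summed level in the Hspa1a-low lymphocyte clusters was 8184 CPM in DPBS WT and 3476 CPM in DPBS KO for B cells. For CD4 T cells it was 7156 and 4833 CPM. In the Hspa1a-high clusters DPBS KO was the higher, at 11090 and 13150 CPM in B cells and at 9315 and 11180 CPM in CD4 T cells. The immediate early genes of the Hspa1a-high clusters were higher in DPBS KO than in DPBS WT, with 9 of 25 past the fold in B cells (4.98% of all genes), 11 of 22 in CD4 T cells (4.86%) and 11 of 24 in CD8 T cells (5.08%). Papain against DPBS in WT also differed in sign between the clusters of these classes for heat shock genes. The medians were 0.66 in B cluster C1 (8 of 12 higher; 6.52% of all genes), 0.58 in CD4 T cluster T0 (6 of 13; 6.11%) and 0.62 in CD8 T cluster T1 (8 of 12; 6.2%), against -0.37, -0.18 and -0.09 in the partner clusters, and 0.26 in alveolar macrophage cluster C7 against -0.64 in C2 (8 of 13 lower; 3% of all genes). Monocytes again had the same sign in both, 0.46 in C9 and 0.16 in C6. In B cells the contrasts that leave out DPBS WT kept 1 sign. Papain in KO gave 0.26 in C1 and 0.38 in C0, and KO against WT under papain gave -0.09 and -0.48. CD8 T cells also kept 1 sign, with 0.33 in T1 and 0.35 in T3, then -0.07 and -0.08. CD4 T cells did so for papain in KO (0.21 in T0, 0.24 in T2) but not for KO against WT under papain (0.05, -0.15). Alveolar macrophages differed in sign in both, with 0.14 in C7 and -0.13 in C2, then 0.03 and -0.26. KO against WT under DPBS and papain against DPBS in WT both use DPBS WT as reference. That library also had the largest share of its lymphocytes in the Hspa1a-high clusters, 54.4% of B cells against 35.2% to 38.1% elsewhere, 46.3% of CD4 T cells against 29.7% to 36.8% and 50.9% of CD8 T cells against 37.1% to 39.9%.

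Related lists, chosen like the members with earlier results known, had medians nearer to 0 than the 13 heat shock genes for KO against WT under DPBS, though not in every contrast. The class-balanced medians for KO against WT under DPBS and papain and for papain in WT and KO were -0.01, -0.05, 0.03 and -0.01 for a wider list of heat shock factors and co-chaperones (33 of 34 measured), and 0.11, 0.01, 0.11 and 0.01 for a wider list of early response genes (37 of 39). The unfolded protein response of the endoplasmic reticulum (20 genes) gave 0.06, -0.10, 0.19 and -0.01, mitochondrial chaperones and proteases (10 genes) -0.04, 0.01, -0.06 and 0.01, and reference genes (16 genes) -0.03, 0.01, -0.07 and -0.01. The shift under DPBS was thus seen in the 13 listed chaperones and not in the median of the wider list. Transcripts of other cells were present in the classes. Of markers of other cells, 8 neutrophil markers summed to 13.9, 6.45, 35.4 and 21.6 CPM in CD4 T cells and to 15.2, 15.9, 30.7 and 21.9 CPM in B cells, with Ly6g at 0 in B cells, and the 8 B cell markers to 177, 23.2, 101 and 81.1 CPM in neutrophils. Erythroid markers in B cells were at 460 CPM in Papain KO and 0.499 to 1.62 CPM elsewhere. Their part in the differences of the listed genes was not tested.

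Over the 24 values of class and library, genes whose level ran most like that of a member are given as a description, since the points share libraries and differ chiefly by class. For Fos the closest genes outside the list were Tpd52 (Pearson r 0.975 of log2(CPM + 10)), Ogfrl1 (0.967), Dennd5a (0.966), Adprh (0.964) and Trib1 (0.963), and among members Zfp36 (0.967) and Nr4a1 (0.940). For Hspa1a they were Ahsa2 (0.950), a homologue of an HSP90 co-chaperone, Commd4 (0.948), Cd2ap (0.946), Anapc16 (0.946) and Hmgxb4 (0.937), and among members Hsp90aa1 (0.976), Jun (0.966) and Hspa1b (0.938).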

How the data were processed

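The deposited matrices hold counts of UMIs per gene and barcode, which the authors made with Cell Ranger (3.1.0 per the file headers; build mm10 per the labels) and limited to called cells. Groups came from the titles. Members, gene lists and comparisons were chosen with earlier results of these data known. Barcodes with over 200 genes and under 15% mitochondrial UMIs were kept. Doublets were scored with Scrublet (Python 3.11.15 with pandas 2.3.3, scipy 1.17.1, numpy 2.4.6 and scanpy 1.11.5); its own threshold marked 1 barcode in Papain KO, so the top scores up to an expected 0.8% per 1000 barcodes were removed (585, 283, 570 and 275). Seurat 5.3.0 (R 4.3.3) integrated and clustered the cells (2000 variable genes without the members, Ift20 and the lists; 30 dimensions; resolution 0.8; 25 clusters), and 8800 T cells again (17 clusters). Clusters were named from fixed markers by a scoring rule set after the clusters were seen, so class names are rebuilt and may differ from the study's.

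UMIs were summed per class and library and divided by the total (CPM). Intervals are 95%, exact Poisson for CPM, exact conditional binomial for ratios within a class, with the Poisson errors carried through for class-balanced means; they cover counting error only. A floor is 3 counts. A gene was called at 1.5-fold among genes with at least 50 UMIs. Every one of the 39 genes was counted; values in each library were given for 16 preset genes and, per contrast, the 3 heat shock and 5 immediate early genes with the largest class-balanced ratio, and further values were chosen after they were seen. The calculation was tested on simulated data. Alternatives were TMM scaling (edgeR 4.0.16), totals without mitochondrial and ribosomal genes, doublets kept, a 10% mitochondrial limit, clusters without integration, gating on markers, means over cells, the top 1% of cells left out, thinning to 1000 UMIs, no minimum, a 2-fold call and, added after seeing the data, 1 cluster per class and cells with shared barcodes left out.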

Additional observations from a re-analysis of the deposited data

Results flagged for a closer look

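For the 9 genes flagged here the class-balanced log2 ratio of papain to DPBS was above 0 in one genotype and below 0 in the other. Opposite signs were also found for genes not flagged. These were Nr4a3 (WT 0.455, KO -0.150), Fosl2 (WT 0.288, KO -0.034), Nr4a2 (WT 0.082, KO -0.177), Fosb (WT -0.205, KO 0.071), Btg1, Hspa8, Ier5 and Klf6. With 1 library per group the difference was not tested between replicates, and its part in handling, treatment or genotype was not tested. The ratio in KO minus that in WT was 0.71 for Dnajb4 (WT -0.16, KO 0.55), 0.55 for Jun (WT -0.11, KO 0.44), 0.46 for Fos (WT -0.24, KO 0.23), 0.41 for Dusp2 (WT -0.29, KO 0.12), 0.38 for Klf4 (WT -0.09, KO 0.29), 0.28 for Btg2 (WT -0.21, KO 0.06), 0.20 for Hsp90aa1 (WT -0.05, KO 0.15) and 0.19 for Nfkbia (WT -0.06, KO 0.14). Of the flagged genes, Jund alone went the other way, at -0.18 (WT 0.12, KO -0.05), as did Nr4a3, Fosl2, Nr4a2 and Btg1 of the others. The ratio in KO uses DPBS KO and the ratio in WT uses DPBS WT as reference. Within single classes the opposite signs of the flagged genes did not always hold. Fos was above 0 in both genotypes in CD4 T cells (WT 0.21, KO 0.50), CD8 T cells (WT 0.20, KO 0.44) and monocytes (WT 0.05, KO 0.25). It differed in sign in B cells (WT -0.32, KO 0.30), alveolar macrophages (WT -0.204, KO 0.245) and neutrophils (WT -0.52, KO 0.07).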

How the results depend on the processing

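No paired analysis was possible because each group holds 1 library, and for the same reason no replicate could be left out. Over all alternatives, 92 of 96 class-balanced medians of the lists and 548 of 576 medians in single classes kept their sign, as did 1324 of 1392 class-balanced values and 7703 of 8206 single-class values of named genes. The heat shock median for KO against WT under papain was -0.10 with TMM factors, -0.16 with clusters made without integration and -0.18 with gating on marker transcripts. The immediate early median in that contrast was 0.07 with gating, and for papain in WT it was 0.12 after thinning. With 1 cluster per class, chosen after seeing the data, the heat shock median for papain in WT was -0.03. For CD8 T cells that setting used the Hspa1a-high cluster T1, but for B and CD4 T cells the Hspa1a-low clusters C0 and T2. A 2-fold bound left 0 heat shock and 0 immediate early genes in both genotype contrasts, 0 for papain in WT, and 1 heat shock and 0 immediate early genes for papain in KO. The share of all genes past 2-fold is not given here, so these counts cannot be set against it. The following single values turned sign. With gating, Hspb1 class-balanced was 0.19 for KO against WT under DPBS, Egr2 in CD8 T cells was -0.26 for KO against WT under papain, and for papain in KO Atf3 in CD4 T cells was -0.40 and Hspa1b in neutrophils -0.63. Averaging over cells gave 0.10 for Hspa1a in neutrophils, KO against WT under DPBS. Keeping doublets gave -0.16 for Klf4 in neutrophils (KO against WT under papain), -0.01 for Ier3 in B cells and -0.00 for Atf3 in CD8 T cells (papain in WT), and 0.79 for Hspe1 in neutrophils (papain in KO). Thinning gave -1.76 for Egr2 in CD8 T cells and -0.86 for Klf4 in neutrophils (KO against WT under papain), and -0.40 for Bag3 in CD4 T cells (papain in KO). With 1 cluster per class (C0 for B cells, T2 for CD4 T cells, C2 for alveolar macrophages), papain in WT gave -0.15 for Atf3 in B cells. It gave -0.42 for Hspb1 and -0.27 for Hsph1 in CD4 T cells and -1.29 for Hspb1 in alveolar macrophages. Papain in KO gave -0.14 for Atf3 in CD4 T cells and -0.49 for Hspb1 in alveolar macrophages. The cause was not tested. Depth limits the neutrophil values most, and counting intervals leave out the variation between mice and preparations.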
